A study of Mus musculus with 8 samples.

Results

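Interleukins and their receptors were examined in the bulk mRNA of whole pituitaries from young and old mice. The members were the genes whose symbol starts with Il followed by a number, which gave 83 of the 49585 genes listed in each library. By known role they were 37 ligands, 41 receptor chains, 3 antagonists or binding proteins (Il18bp, Il1rn and Il1f5) and 2 genes that share the prefix without being an interleukin or a receptor. These last are Il4i1, a secreted amino acid oxidase named for its induction by interleukin 4, and Il1bos, an antisense transcript of Il1b. Il22ra2, a soluble binding protein named as a receptor, was counted with the receptor chains. The 8 libraries came from wild-type C57BL/6 mice that carried no engineered allele and received no treatment, 4 libraries from mice aged 2 to 3 months (young) and 4 from mice aged 18 to 24 months (old). The pituitary was removed after blood had been flushed out by perfusion. The labels do not say whether each library is a separate mouse, so the tests measure the spread between these libraries, which may in part be technical. Sex is not given in the labels of these samples.

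Interleukins are small secreted proteins through which leukocytes, stromal cells and endocrine cells signal to each other. Most bind receptors made of a private chain that recognises the ligand and a shared chain that carries the signal. Receptors of the IL-4, IL-6, IL-10 and IL-12 groups act through JAK kinases and STAT transcription factors. Receptors of the IL-1 and IL-17 groups act through adaptors, such as Myd88 in the IL-1 group, and through NF-kappaB. In the pituitary, cytokines of the IL-6 and IL-1 groups are known to act on hormone release, and the glia-like folliculostellate cells are a known local source of interleukin 6.

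Values are FPKM (fragments per kilobase of exon, scaled to the total of the library), a level per length, so that different genes can be set side by side. Each library held 15042321 to 20429604 fragments assigned to genes, and a count of 0 allows up to 3 fragments, which is 0.147 to 0.199 CPM (fragments scaled to the library total, with no division by length). Old and young were compared on log2(FPKM + 0.1) with limma, over the 23498 genes that had a mean of at least 0.1 FPKM, and a gene was called at an adjusted p (Benjamini-Hochberg, over all of these genes) under 0.05. Fold changes on this scale understate the change of genes near 0.1 FPKM. Of all genes tested, 436 were called higher in old pituitary (1.86%) and 111 lower (0.472%), and the median log2 change was 0.15. When libraries were rescaled by median-ratio size factors, the median became 0.007 and the split became 208 higher and 215 lower, so the value of each gene below is to be read against that shift. All 11 marker genes of hormone-secreting cells were detected in all 8 libraries. Their summed FPKM was 136000 to 160400 (young) and 101800 to 130100 (old), mostly Gh and Prl. The mean of Gh went from 62320 to 24330 FPKM and that of Prl from 82120 to 83140 FPKM. Of the 11, 2 (Gh and Lhb) were called lower, and the log2 change was above 0 in 7 and below 0 in 4 (median 0.07).

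Most interleukins were near or below what these libraries could detect. Of the 37 ligands, 9 had no fragment in any library (Il9, Il12a, Il17a, Il24, Il31, Il1f6, Il1f8, Il1f9 and Il1f10), 17 were detected but stayed under a mean of 0.1 FPKM, and 11 were tested. None of the 41 receptors was at 0 throughout, 14 stayed under a mean of 0.1 FPKM, and 27 were tested. Il18bp was tested among the antagonists and Il4i1 among the rest, so that 40 of the 83 members entered the comparison. A mean of 1 FPKM or more was reached by 17 members, of which 5 were ligands and 10 were receptors.

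Among the 40 tested members, 4 were called higher in old pituitary and 0 were called lower by limma, against 1.86% and 0.472% of all genes. The ligands called were Il16 and Il23a, which makes 2 of 11. The receptor chains called were Il4ra and Il10ra, which makes 2 of 27. At an unadjusted p under 0.05 there were 14 members higher and 4 lower, where 18.0% and 3.79% of all genes were. With voom, a limma method that weights fragments recovered from the FPKM values, 9 members were called higher and 2 lower, where 6.12% of all genes were called higher and 1.52% lower. The median log2 change was 0.77 over the 11 ligands tested and 0.10 over the 27 receptors tested, beside 0.15 over all genes tested. These medians are descriptions, since a member that passed the filter through its old libraries, as Il23a did, had to lie above young.

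Il4ra encodes the receptor chain that binds interleukin 4 and, with Il13ra1, interleukin 13. It lies on chromosome 7 at 125552120 to 125579474 on the plus strand (GRCm38, GENCODE M21). The young libraries were at 0.901, 0.875, 0.726 and 1.08 FPKM and the old libraries at 2.02, 1.87, 1.65 and 1.92 FPKM. All 4 old libraries lay above all 4 young ones, and the lowest old value was above the highest young value by more than the whole range within either group. The mean rose from 0.897 ± 0.147 (SD, n = 4) to 1.87 ± 0.156 FPKM (SD, n = 4), a log2 change of 0.99 with a standard error of 0.13 and an adjusted p of 0.0189 (limma). These levels rest on 380 fragments in young and 795 in old. Il4ra was called under each of 8 other settings of scaling, filter, pseudocount, spread model and test (a fit with the replicate number as a block stands apart). Leaving out young replicate 1, old replicate 1 or old replicate 2 moved its adjusted p to 0.054, 0.0571 and 0.0617. An uncharacterised gene on the other strand, Gm44876, covers 9.5% of its exon bases, and no source used here gives whether fragments were counted by strand.

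The promoters of 2 members are shown, Il4ra as the receptor called under all 8 of these settings and Il18 as the most abundant ligand whose old libraries all lay above the young ones. RefSeq promoter entries were found for 66 of the 83 members, and none for Il10ra, Il23a and Il34. The bases read 5′ to 3′ on the plus strand of GRCm38.p6 and end before the first annotated exon base, and capitals mark the motifs searched for.
Il4ra, chr7:125552021-125552119: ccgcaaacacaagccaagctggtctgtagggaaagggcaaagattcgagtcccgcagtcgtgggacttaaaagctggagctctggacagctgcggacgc
Il18, chr9:50554450-50554699: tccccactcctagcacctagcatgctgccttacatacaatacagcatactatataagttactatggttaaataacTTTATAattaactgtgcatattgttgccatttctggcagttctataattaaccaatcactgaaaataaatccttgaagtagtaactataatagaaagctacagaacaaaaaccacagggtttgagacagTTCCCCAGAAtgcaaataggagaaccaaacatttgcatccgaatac

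The windows differ in base composition. The 250 bases before the RefSeq start of Il4ra held 59.6% G and C and 17 CG dinucleotides, and those of Il18 held 35.6% and 1, where the median over 32817 promoters was 52.4%. The RefSeq start of Il4ra, 125552271, lies inside the gene as annotated by GENCODE (start 125552120). Only the first 99 bases of its window are therefore printed, and the rest lies within the annotated gene. On both strands, TTCNNNNGAA (the spacing bound by STAT6), TTCNNNGAA (the spacing bound by other STATs) and TATAAA (the TATA box) were searched for, and no one of these letter patterns can contain another. They occur in 5.85%, 7.01% and 12.4% of all promoters. The Il18 window held 1 match to TTCNNNNGAA that starts 46 bases before the RefSeq start and 1 match to TATAAA, read on the minus strand, that starts 175 bases before it. The Il4ra window held no match to these letters.

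Il10ra encodes the ligand-binding chain of the interleukin 10 receptor, through which leukocytes are restrained, and lies on chromosome 9 at 45253837 to 45269149 on the minus strand. Its young libraries were at 0.449, 0.418, 0.658 and 0.703 FPKM and its old libraries at 1.12, 1.08, 1.28 and 1.14 FPKM. The groups did not overlap, and the old libraries were closer together than the young ones. Its mean of 0.557 ± 0.144 FPKM in young rose to 1.16 ± 0.0842 FPKM, which is a log2 change of 0.96 (standard error 0.17, adjusted p = 0.0356, limma). It was called under each of the 7 such settings in which it was tested, the replicate block again apart. The adjusted p passed without young replicate 4, the highest young library, at 0.0424, and lay between 0.0518 and 0.0945 without each of the other 7 libraries. The partner chain Il10rb, which is shared with other receptors of the IL-10 group, was at 4.33 ± 0.436 FPKM in young and 4.98 ± 0.571 FPKM in old (adjusted p = 0.369), so that its level was higher than that of Il10ra in both groups. Il10 itself had 4 fragments in young and 3 in old and was not tested.

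Il16 encodes a precursor whose secreted end attracts CD4-bearing leukocytes, and lies on chromosome 7 at 83642825 to 83745726 on the minus strand. Its young libraries were at 0.126, 0.186, 0.212 and 0.278 FPKM and its old libraries at 0.482, 0.468, 0.376 and 0.429 FPKM. The groups did not overlap. Its mean rose from 0.2 ± 0.0631 to 0.439 ± 0.0473 FPKM, a log2 change of 0.86 (standard error 0.17, adjusted p = 0.0458, limma). The call was close to the threshold, since it was kept under 1 of 7 other settings (voom, adjusted p = 0.00993) and, among the libraries left out, only without young replicate 4 (0.0428, otherwise 0.0765 to 0.12). Genes on the other strand, Stard5 and 2310044K18Rik, cover 17.4% of its exon bases.

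Il23a encodes the p19 chain that joins Il12b to form interleukin 23, and lies on chromosome 10 at 128296139 to 128298752 on the minus strand. It was listed at 0 in young replicates 1, 2 and 3 and at 0.0805 FPKM in young replicate 4, and at 0.183, 0.318, 0.229 and 0.168 FPKM in the old libraries. The groups did not overlap, but the values rest on few fragments. With the shortest length that makes all its values whole, 678 bases, they correspond to 0, 0, 0 and 1 fragments in young and 2, 4, 3 and 2 in old. The ratio of 11 to 1 fragments, adjusted for library totals, was 10.9 with a 95% interval of 1.59 to 470.9 that covers counting error only. The fitted log2 change of 1.46 (standard error 0.24, adjusted p = 0.0291, limma) depends on the pseudocount, and the gene passed the filter through its old libraries. It was called under 4 of 7 other settings, and only without young replicate 4 among the 7 libraries whose omission left it tested (0.0209, otherwise 0.0509 to 0.0874). Without old replicate 2 its mean was under the filter. Its partner Il12b had 8 fragments in each group.

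**Figure D1:**
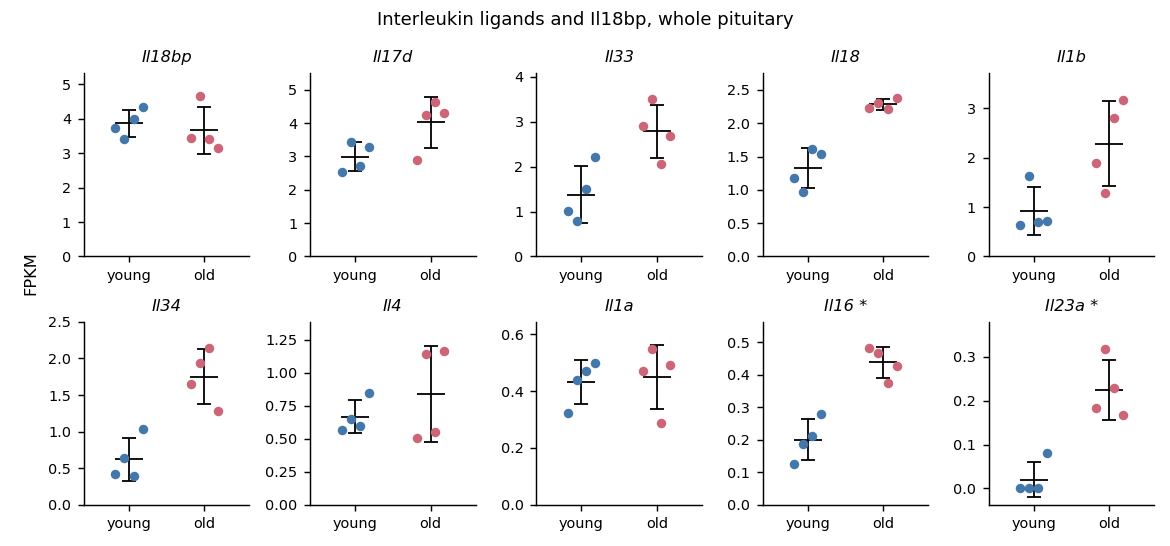
FPKM of 9 interleukin ligands that were tested and of the binding protein Il18bp in the 4 young and 4 old libraries. Points are libraries, the long tick is the mean and the bars are 1 SD, each panel has its own linear axis, and an asterisk marks an adjusted p under 0.05. The old points of Il18, Il34, Il16 and Il23a all lie above the young points, and in the other 6 panels the groups overlap.

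The ligands of the IL-1 group that were abundant enough to test were not called by limma, and Il18, Il33 and Il1b among them had higher means in old pituitary. Il18, an inflammasome-processed cytokine that drives interferon gamma production, was at 1.19, 0.967, 1.61 and 1.54 FPKM in young and at 2.23, 2.31, 2.21 and 2.39 FPKM in old. All 4 old libraries lay above the young ones and close to each other, and the log2 change was 0.77 (standard error 0.16, adjusted p = 0.0552, limma). Its secreted antagonist Il18bp was at 3.86 ± 0.394 FPKM in young and 3.66 ± 0.683 FPKM in old, a log2 change of -0.09 with a 95% interval of -0.43 to 0.25. The ratio of the Il18 level to the Il18bp level was 0.318, 0.284, 0.406 and 0.355 in young and 0.65, 0.495, 0.649 and 0.76 in old. This ratio was chosen after its values were seen and was not tested.

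Il33, a nuclear alarmin of barrier, stromal and glial cells, was at 1.01, 0.783, 1.49 and 2.22 FPKM in young and at 2.91, 3.51, 2.07 and 2.67 FPKM in old. Young replicate 4 lay above old replicate 3, so the groups overlapped, and the log2 change was 1.04 (standard error 0.31, adjusted p = 0.118). Il1b, the inflammatory cytokine made chiefly by myeloid cells, was at 0.641, 1.64, 0.693 and 0.717 FPKM in young and at 1.89, 1.28, 2.8 and 3.18 FPKM in old. Young replicate 2 stood above the other 3 young libraries and above old replicate 2. The log2 change of Il1b was 1.24 (standard error 0.37, adjusted p = 0.116). Among the 8 other settings Il33 and Il1b were called higher by voom alone (adjusted p = 0.0198 and 0.023). Il18 was called under 3 of the 8, with a pseudocount of 1 FPKM (0.0333), a filter at a mean of 1 FPKM (0.0283) and a mean-variance trend (0.0404), and not by voom (0.0538). Il1a, the related cytokine that needs no cleavage to be active, was at 0.433 ± 0.0767 FPKM in young and 0.45 ± 0.112 FPKM in old (log2 change 0.03, 95% interval -0.41 to 0.47).

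Il34, the second ligand of the macrophage growth factor receptor Csf1r, was at 0.416, 0.645, 0.4 and 1.03 FPKM in young and at 1.65, 1.93, 2.15 and 1.28 FPKM in old. The groups did not overlap, and the mean in old was 2.81 times that in young. The log2 change of 1.42 (standard error 0.29) had an adjusted p of 0.0527 with limma, 0.00573 with voom and 0.0335 without young replicate 4, the highest young library. Il34 was called under 4 of the 8 other settings (adjusted p up to 0.07) and under 1 of the 8 omissions (up to 0.131). The change rests on 86 fragments in young and 247 in old. Il17d, the most abundant ligand here and a little-studied member of the IL-17 group, was at 2.99 ± 0.431 FPKM in young and 4.02 ± 0.767 FPKM in old, with overlapping groups (adjusted p = 0.23). Il4, the type 2 cytokine that signals through Il4ra, was at 0.569, 0.65, 0.598 and 0.847 FPKM in young and at 0.506, 1.15, 0.55 and 1.17 FPKM in old. A pair of old libraries of Il4 lay below all young ones and the other pair above them, and the log2 change was 0.23 with a 95% interval of -0.43 to 0.89. Il6, the cytokine received by Il6ra and Il6st, had 19 fragments in young and 15 in old, was listed at 0 in old replicate 3 and was highest in old replicate 4, at 0.306 FPKM.

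**Figure D2:**
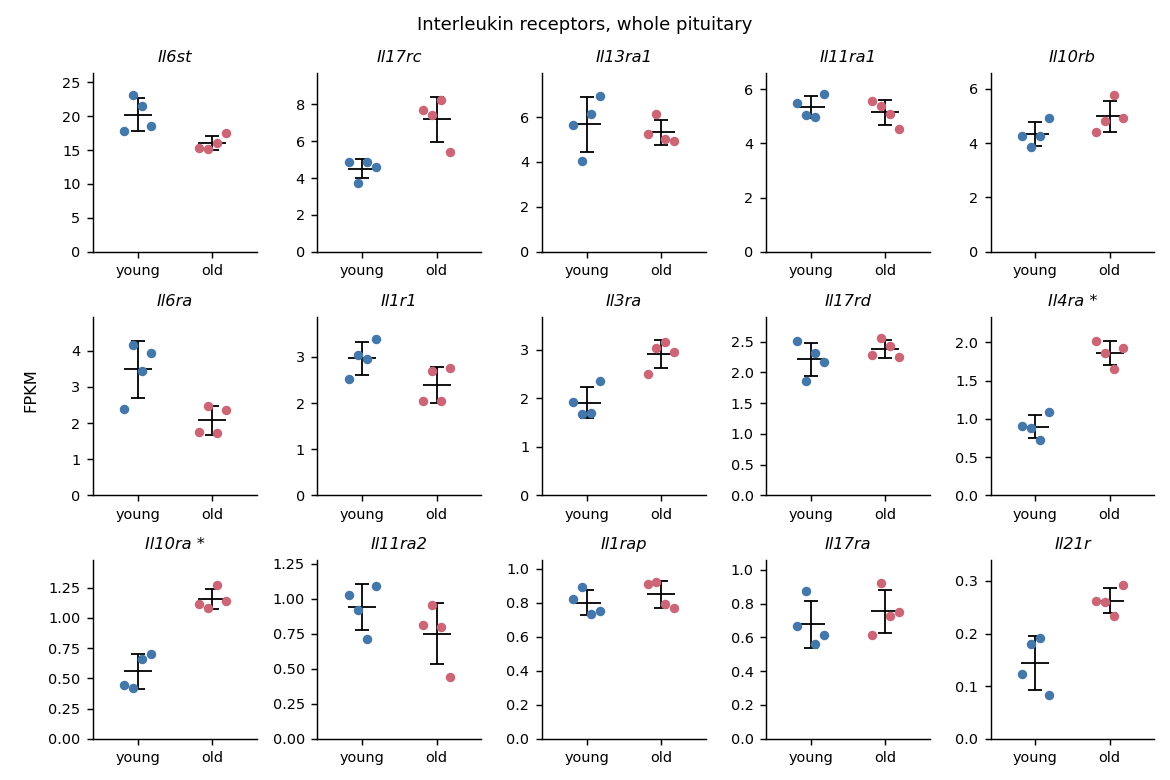
FPKM of 15 interleukin receptor chains in the 4 young and 4 old libraries, ordered by their mean level. Points are libraries, the long tick is the mean and the bars are 1 SD, each panel has its own linear axis from 0, and an asterisk marks an adjusted p under 0.05. The old points of Il17rc, Il3ra, Il4ra, Il10ra and Il21r lie above all young points, and those of Il6st lie below them.

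Il6st, the signal-transducing chain gp130 shared by the IL-6 group, was the most abundant member by far. Its young libraries were at 17.8, 23.1, 21.5 and 18.6 FPKM and its old libraries at 15.3, 15.2, 16.1 and 17.5 FPKM. All old libraries lay below all young ones, with old replicate 4 and young replicate 1 the nearest pair, and Il6st was the only tested member in that position, where 2.06% of all genes were. The log2 change was -0.33 (standard error 0.11) with an adjusted p of 0.159 by limma and 0.048 by voom. Il6ra, the private chain for interleukin 6, was at 2.38, 4.18, 3.45 and 3.94 FPKM in young and at 1.74, 2.47, 1.73 and 2.38 FPKM in old. Young replicate 1 lay within the old range. The log2 change of Il6ra was -0.71 (standard error 0.21, adjusted p = 0.117 by limma and 0.018 by voom), and voom rests here on 2128 fragments in young and 1284 in old.

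The remaining chains of the IL-6 and IL-12 group were not called in either direction. Il11ra1, the interleukin 11 receptor, was at 5.34 ± 0.392 FPKM in young and 5.14 ± 0.451 FPKM in old (log2 change -0.06, 95% interval -0.30 to 0.18). Its near-identical copy Il11ra2 was at 0.94 ± 0.166 and 0.752 ± 0.22 FPKM, and the counting may have split or lost fragments between the copies. Il31ra, the interleukin 31 receptor chain, was at 0.839 ± 0.185 FPKM in young and 0.504 ± 0.203 FPKM in old (adjusted p = 0.202). It lies 9811 bases from Il6st on chromosome 13, on the opposite strand. Over the 9 tested members of the IL-6 and IL-12 group the median log2 change was -0.32, with 7 below 0 and 2 above (Il23a and Il27ra), and Il27ra fell below 0 under both rescalings. Il23a and Il27ra (young mean 0.0957 FPKM) passed the filter through their old libraries, and Il6 (old mean 0.0885 FPKM) through its young ones. The means of these genes had to differ in that direction, so the split and the median are descriptions. In the reported fit, 7052 of all 23498 genes tested were below 0.

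Il17rc, the chain that pairs with Il17ra to receive interleukins 17A and 17F, was at 4.88, 3.73, 4.86 and 4.61 FPKM in young and at 7.68, 7.43, 8.26 and 5.44 FPKM in old. Old replicate 4 was nearest to the young libraries, and the groups did not overlap. The log2 change was 0.65 (standard error 0.16) with an adjusted p of 0.0754 by limma, 0.0126 by voom and 0.0483 without old replicate 4. Il17rc was called under 4 of the 8 other settings, and not under the rescalings (0.158 and 0.157) or without a filter (0.104). Old replicate 4 was the 1 of the 8 omissions under which it was called, and the highest adjusted p among them was 0.176. Its partner Il17ra was at 0.678 ± 0.138 and 0.755 ± 0.127 FPKM, and Il17rd, known as a brake on growth factor signalling, at 2.22 ± 0.269 and 2.38 ± 0.141 FPKM, and neither was called. The gene next to Il17rc on chromosome 6, Il17re, starts upstream of it on the same strand and ends 668 bases before it. Il17re was at 0.679 ± 0.153 FPKM in young and 0.557 ± 0.202 FPKM in old, with a log2 change of -0.27. Il17a had no fragment in any library and Il17f had 0 in young and 1 in old.

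Il3ra, the interleukin 3 chain that pairs with the common beta chain, was at 1.92, 1.67, 1.69 and 2.35 FPKM in young and at 2.5, 3.03, 3.16 and 2.95 FPKM in old. The groups did not overlap (log2 change 0.59, standard error 0.14, adjusted p = 0.069). Il21r, the interleukin 21 chain of lymphocytes, lies 23954 bases downstream of Il4ra on the same strand of chromosome 7. It was at 0.122, 0.18, 0.191 and 0.0822 FPKM in young and at 0.262, 0.26, 0.234 and 0.292 FPKM in old, again without overlap (log2 change 0.59, adjusted p = 0.101, from 34 and 62 fragments). All 8 tested members of the common gamma chain group (Il4, Il15, Il4ra, Il15ra, Il21r, Il2rb, Il2rg and Il7r) had a log2 change above 0, also under both rescalings. In the reported fit, 16446 of all 23498 genes tested were above 0. The median over the 8 members was 0.51, and Il4ra was the 1 called among them. The common gamma chain itself, Il2rg, was at 0.557 ± 0.2 FPKM in young and 0.84 ± 0.276 FPKM in old (adjusted p = 0.324), and another gene, Gm20489, covers 30.5% of its exon bases.

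Other receptor chains of the IL-4/13 and IL-1 groups were not called by limma. Il13ra1, which joins Il4ra in the type II receptor, was at 5.68 ± 1.23 FPKM in young and 5.32 ± 0.56 FPKM in old (log2 change -0.07, 95% interval -0.48 to 0.34), so that the 2 chains of this receptor had different values, the one called and the other not. A test of the difference between them was not made. Il1r1, the signalling receptor for interleukin 1, was at 2.97 ± 0.359 FPKM in young and 2.39 ± 0.39 FPKM in old (log2 change -0.31, 95% interval -0.65 to 0.03, adjusted p = 0.265). Its partner Il1rap was at 0.8 ± 0.074 and 0.849 ± 0.0779 FPKM, and the decoy receptor Il1r2 at 0.433 ± 0.103 and 0.483 ± 0.14 FPKM. Il1rapl2, a neuronal relative of Il1rap, was at 0.298, 0.85, 0.24 and 0.175 FPKM in young and at 0.993, 0.6, 1.01 and 0.573 FPKM in old, a log2 change of 1.00 with an adjusted p of 0.199 by limma and 0.0408 by voom. Young replicate 2 stood within the old range of Il1rapl2.

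Il6st stood first by level in both groups. In the young group it was at 20.3 FPKM, clear of all other members, and Il13ra1, Il11ra1, Il17rc and Il10rb followed between 4.33 and 5.68 FPKM. Among these the libraries of Il13ra1 overlapped those of Il11ra1, and the libraries of Il17rc overlapped those of Il10rb and lay below those of Il11ra1. In the old group Il6st was at 16.04 FPKM and Il17rc followed at 7.2 ± 1.22 FPKM. Below these, Il13ra1, Il11ra1 and Il10rb lay between 4.98 and 5.32 FPKM in old, within each other's spread. By mean, the highest ligand was Il17d in both groups, and Il18bp was above every ligand in young. Single libraries differed, with Il17d at 3.43 and Il18bp at 3.405 FPKM in young replicate 2. In old replicate 1, Il33 was at 2.906 and Il17d at 2.9 FPKM.

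**Figure D3:**
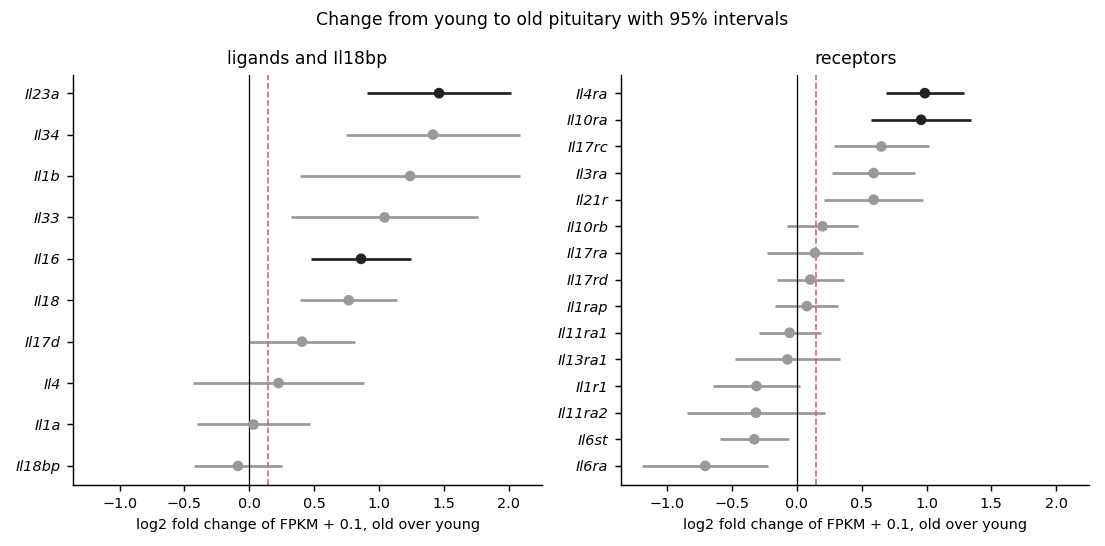
Log2 change of FPKM + 0.1 from young to old pituitary for the members of the 2 plots of FPKM, ligands with Il18bp on the left and receptors on the right. Points are the limma estimates, bars are 95% intervals from 4 young and 4 old libraries, black marks an adjusted p under 0.05, the solid line is 0 and the dashed line is the median of all genes tested, 0.15. The estimates run from -0.71 for Il6ra to 1.46 for Il23a.

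Non-overlapping groups were counted as a second description. All 4 old libraries lay above all 4 young ones in 10 of the 40 tested members, 4 of them ligands (Il18, Il34, Il16 and Il23a) and 5 receptors (Il17rc, Il3ra, Il4ra, Il10ra and Il21r), beside 13.4% of all genes. The tenth was Il4i1, which was at 2.55 ± 0.0669 FPKM in young and 3.19 ± 0.386 FPKM in old (log2 change 0.31, adjusted p = 0.155). Other genes, chiefly Nup62 and Atf5, cover 86.3% of the exon bases of Il4i1, and fragments of these genes cannot be told apart from its own. Of the 10, Il23a passed the filter through its old libraries, so its old mean had to be higher.

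Members under the filter were represented by few fragments. Among the receptors these ranged from 1 fragment over all libraries for Il23r and Il22ra2 to 92 for Il1rl2. Il2ra, the high-affinity interleukin 2 chain of regulatory and activated T cells, had 14 fragments in young and 45 in old, and was at 0.0204, 0, 0.0686 and 0.0383 FPKM in young and at 0.239, 0.0947, 0.0182 and 0.11 FPKM in old, with overlapping groups. Il7, a survival factor for lymphocytes, had 16 and 26 fragments. Il18r1, the receptor for interleukin 18, had 25 and 28. The antagonist Il1rn had 8 and 12. Il5 had 3 and 9, Il2 had 3 and 5 and Il13 had 1 and 1. When the filter was dropped, 0 of the 33 detected members under it were called by limma, and the lowest adjusted p among them was 0.203.

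The signalling genes around the interleukins were taken from 5 lists with 80 genes, of which 73 were tested. By limma 4 were called higher and 0 lower, beside 1.86% and 0.472% of all genes. At an unadjusted p under 0.05 there were 29 higher and 0 lower, beside 18.0% and 3.79%. Voom called 11 higher and 0 lower, beside 6.12% and 1.52%. The median log2 change over the 73 was 0.24, and the old libraries lay above all young ones in 22 of them and below in 0, beside 13.4% and 2.06% of all genes. The partner chains that were called pair with Il7r and with Il3ra. Crlf2, the chain that pairs with Il7r to receive thymic stromal lymphopoietin, rose from 1.46 ± 0.172 to 3.37 ± 0.18 FPKM (log2 change 1.16, standard error 0.11, adjusted p = 0.00783). Csf2rb, the common beta chain of the interleukin 3, interleukin 5 and GM-CSF receptors, rose from 0.148 ± 0.0362 to 0.426 ± 0.0233 FPKM (log2 change 1.09, standard error 0.12, adjusted p = 0.0117). Crlf2 and Csf2rb were called with each library left out. Csf2rb2, a near-identical copy of Csf2rb, was at 0.0718 ± 0.0483 and 0.192 ± 0.0679 FPKM, and fragments may be shared between the copies. Csf2rb2, Lif and Aim2 (young means 0.0718, 0.0756 and 0.0803 FPKM) passed the filter through their old libraries. Their old means had to be higher, so the counts and medians over these lists are descriptions.

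Of the 19 partner genes 16 were tested (median log2 change 0.32), and the other 14, among them Lifr (5.45 ± 0.11 and 5.38 ± 1.02 FPKM) and Csf2ra (4.8 ± 1.2 and 7.75 ± 1.94 FPKM), were not called. Csf1r, the receptor for Il34, was at 4.09 ± 0.733 FPKM in young and 6.06 ± 0.541 FPKM in old without overlap (adjusted p = 0.0838 by limma and 0.0124 by voom). Of the 13 inflammasome and processing genes 9 were tested (median log2 change 0.55) and 1 was called, Gsdmd, which forms the pore through which interleukin 1 beta and interleukin 18 leave the cell. Gsdmd rose from 1.7 ± 0.167 to 2.66 ± 0.223 FPKM (log2 change 0.62, adjusted p = 0.0374), but the call was lost under both rescalings (0.109 and 0.11), without a filter (0.0528) and on omission of any library (0.0634 to 0.106). Casp1, the protease that activates both cytokines, was at 0.177 ± 0.087 FPKM in young and 0.535 ± 0.196 FPKM in old, without overlap (adjusted p = 0.0866). The 2 most abundant genes of that list, Adam10 and Capn2, were not called (adjusted p = 0.306 and 0.127).

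Of the 19 adaptors of the IL-1 and IL-17 pathways, all tested (median log2 change 0.18), Myd88 was called. It rose from 3.71 ± 0.237 to 5.19 ± 0.228 FPKM (log2 change 0.47, adjusted p = 0.0431), and the call was lost under both rescalings (0.171 and 0.159), without a filter (0.0644) and on omission of any library except young replicate 2 (0.0684 to 0.118). The abundant Nfkbia and Irak1 were not called (adjusted p = 0.707 and 0.908). None of the 11 JAK and STAT genes (median log2 change 0.25) was called by limma, while 5 were higher at an unadjusted p under 0.05 and voom called 2 (Stat2 and Stat4). Stat6, which Il4ra activates, was at 5.92 ± 0.752 and 7.19 ± 0.2 FPKM without overlap (adjusted p = 0.188), and Stat3, which Il6st activates, was at 9.78 ± 0.989 and 10.7 ± 1.21 FPKM (adjusted p = 0.587). The most abundant of that list, Stat5b and Jak1, had adjusted p of 0.747 and 0.255. None of the 18 SOCS proteins and other brakes (median log2 change 0.12) was called by limma, with 6 higher at an unadjusted p under 0.05 and 2 called by voom (Ptpn6 and Socs5). Socs3, the feedback inhibitor of gp130, was at 18.0 ± 7.08 and 15.4 ± 1.32 FPKM, and Ptpn11 at 18.3 ± 1.71 and 17.5 ± 0.808 FPKM.

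The summed markers of macrophages, of T and NK cells and of B and plasma cells did not overlap between the ages and had the old libraries above, though most of the single markers were not called by limma. The 15 macrophage markers summed to between 41.8 and 69.2 FPKM in the young libraries and between 91.1 and 117 FPKM in the old ones, with 3 of the 14 tested called higher (Fcgr1, C1qb and Lyz2), 12 by voom and a median log2 change of 0.90. The 17 T and NK cell markers summed to 3.17 to 4.87 (young) and 6.04 to 7.51 FPKM (old), with 1 of 9 called by limma (Klrd1), 0 by voom and a median of 0.74. The 14 B and plasma cell markers summed to 41.6 to 46.5 and 82.4 to 102 FPKM, with 4 of 9 called higher (Jchain, Igkc, Ighm and Igha) and a median of 1.21. Klrd1, Jchain and Cd22 had young means of 0.0541, 0.079 and 0.0856 FPKM. They passed the filter through their old libraries, so their old means had to be higher, and the medians are descriptions. Xbp1, which is not restricted to plasma cells, made up most of that sum in young, at a mean of 36.2 FPKM. Cd79b and Sdc1 of the same list lay below all young libraries in all 4 old ones (log2 changes -0.70 and -0.66) and were called lower by voom but not by limma. The 10 neutrophil markers summed to 0.245 to 3.04 and 0.819 to 5.16 FPKM, with 0 of 6 called by limma or voom and 1 at an unadjusted p under 0.05. The part of these cells in the values of Il10ra, Il4ra, Il16, Il23a, Il21r, Il34 and Il1b was not tested. In bulk tissue, more cells of a type and more RNA per cell cannot be told apart.

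Among the lists for mast, endothelial, stem, mesenchymal, glial and blood markers, the mesenchymal one held the most calls by limma. The 8 mast cell markers summed in the young libraries to between 1.37 and 1.81 FPKM and in the old ones to between 0.933 and 1.75 FPKM, with Kit called lower. Fcer1a, Ms4a2 and Mcpt4 were at 0 in all libraries, while Cma1, Tpsb2 and Cpa3 were detected in some, at up to 0.2015, 0.15 and 0.0721 FPKM. The 12 endothelial markers summed to 80.5 to 112 and 86.0 to 117 FPKM, and the 8 stem cell markers to 134 to 167 and 132 to 156 FPKM. None of these was called by limma, and at an unadjusted p under 0.05 there were 1 higher and 1 lower endothelial marker and 1 higher and 2 lower stem cell markers, with 1 endothelial marker called higher by voom. The 10 mesenchymal markers summed to 69.4 to 83.3 and 48.0 to 76.7 FPKM, most of it Col1a2 (log2 change -0.07). All 10 were tested. Limma called 2 lower (Col1a1 and Col3a1) and voom 3, beside 0.472% and 1.52% of all genes. The log2 change was below 0 in 9 (median over the 10 -0.29). In 3 the old libraries lay below all young ones, beside 2.06% of all genes. Dpt, the 1 above 0, had a young mean of 0.0608 FPKM. It passed the filter through its old libraries, so its old mean had to be higher. The 9 pituicyte and glia markers summed to 6.61 to 7.23 and 8.12 to 14.8 FPKM, with Mbp called higher and no overlap between the summed levels of the groups. Of the 6 tested, 4 had a log2 change above 0 and 2 below. Scn7a, among the 4, had a young mean of 0.0966 FPKM and passed the filter through its old libraries, so its old mean had to be higher. Aqp4 lay below all young libraries in all 4 old ones (log2 change -0.47) and was not called by limma or voom. The highest sum, in old replicate 4, included Scn7a at 3.0 FPKM, which was at 0.0212 to 0.0811 FPKM in the other old libraries. The summed blood markers (7 genes) lay between 13.03 and 110 FPKM in the young libraries and between 15.9 and 124 FPKM in the old ones, with 0 called by limma, 0 by voom and 0 at an unadjusted p under 0.05, and a median log2 change of 0.84 over the 5 tested, so that these genes varied widely between libraries within both ages.

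**Figure D4:**
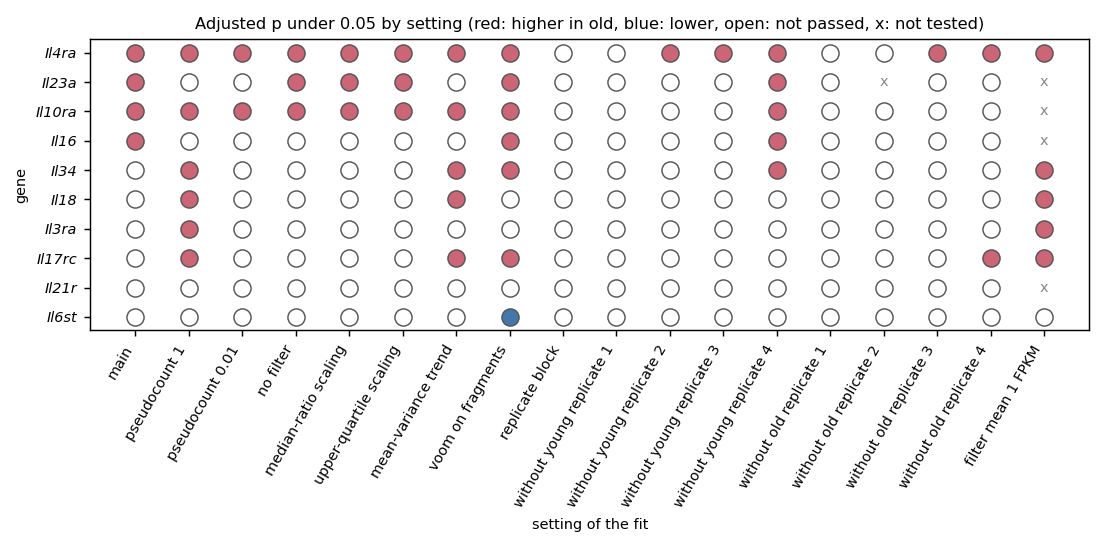
Call of 10 members in each setting of the fit, old against young, with the reported fit (main) at the left. A red disc is an adjusted p under 0.05 with a higher level in old, a blue disc the same with a lower level, an open circle a p that did not pass and a cross a gene not tested. Il4ra is called in all settings except the replicate block and 3 of the 8 omitted libraries.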

How the data were processed

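Poly(A) mRNA of whole pituitaries was sequenced (4 young and 4 old libraries). Per the study's methods and processing notes, the authors aligned reads with STAR 2.6.1a to GRCm38, counted fragments per gene with featureCounts on an Ensembl annotation and deposited FPKM computed with edgeR 3.28.1. CASAVA 1.9 is also named. No source used here gives the annotation release or the strand setting. Here log2(FPKM + 0.1) was fitted with limma 3.58.1 (R 4.3.3), without a trend or covariates, for genes that averaged 0.1 FPKM or more, and p-values were adjusted over all 23498. The members and lists were chosen with earlier results of these data known. Members named are those called, those whose groups did not overlap, the 8 ligands or antagonists and the 14 receptors with the highest means. Named pathway genes are those called and the 2 most abundant per list. Others (Il6, Il10, Il12b, Il31ra, Il17re, Il2rg, Il1r2, Il1rapl2, members under the filter, Csf1r, Csf2rb2, Lif, Aim2, Casp1, Stat2, Stat3, Stat4, Stat6, Ptpn6 and Socs5) were added as partners or for their values.

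Whole fragments were recovered from FPKM, GENCODE M21 exon lengths and library totals, and 91.27 to 92.06% of low values came out whole within 0.01 fragments. For 72 of 83 members the annotated length gave whole fragments. Fragment numbers are printed for these and, from a fitted length, for Il23a. Fragment intervals cover counting error only. Within groups, libraries differed beyond sampling noise (chi-square per degree of freedom 8.68 to 23.64), so none was merged. In the listed symbols, 95 occur more than once and were kept as separate genes. The tests were run first on simulated data. Other pseudocounts, filters, scalings, a mean-variance trend, voom, a replicate block and the omission of each library were tried.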

Additional observations from a re-analysis of the deposited data

Results flagged for a closer look

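Il1b in young replicate 2 was at 1.64 FPKM, while the other 3 young libraries lay between 0.641 and 0.717 FPKM, a gap of 0.924 of the range of the group, above Dixon's 95% critical value. Il23a in young replicate 4 was at 0.0805 FPKM, which is 1 fragment, while the other 3 young libraries were at 0, so the gap was the whole range. These were the 2 such libraries among 52 groups of 4 that were examined for the 26 named members, and chance alone marks about 1 group in 20.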

How the results depend on the processing

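Over all genes tested the number called higher, 436, became 689 with a pseudocount of 1 FPKM, 263 without a filter, 796 with a filter at a mean of 1 FPKM, 208 with median-ratio scaling, 211 with upper-quartile scaling, 705 with a mean-variance trend, 1432 with voom and 4 with the replicate block. The number called lower, 111, became 215 and 204 with the 2 scalings, 355 with voom and 0 with the block. With 1 library left out these numbers ranged from 64 to 327 and from 21 to 163. Of the ligands, 2 were called higher, and this became 0 with a pseudocount of 0.01, 1 without a filter, 1 with either scaling and 5 with voom, and 0 to 3 with 1 library left out. Of the receptors, 2 were called higher, and this became 4 with a pseudocount of 1 and 4 with voom, which also called 2 lower, and 0 to 2 with 1 library left out. No member was called without young replicate 1, old replicate 1 or old replicate 2. The 4 pathway genes became 2 without a filter and with either scaling, 11 with voom, and 2 to 3 with 1 library left out. The cause of these changes was not tested.

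The replicate numbers are shared by young and old libraries, but libraries of the same number did not deviate together (correlations over genes 0.037, -0.037, -0.005 and 0.006), nor did each correlate best with its own number. With the replicate block 0 ligands, 0 receptors and 0 pathway genes were called, and the fit has fewer degrees of freedom.

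The direction of 5 tested members that were not called changed under both scalings (Il17rd, Il1a, Il1rap, Il1r2 and Il27ra). For the 3 of these that the rule named, median-ratio and upper-quartile scaling gave log2 changes of -0.042 and -0.037 for Il17rd, -0.087 and -0.083 for Il1a and -0.058 and -0.053 for Il1rap. With 1 library left out, the log2 change ranged from -0.073 to 0.191 for Il1a, from -0.095 to 0.002 for Il11ra1 and from -0.225 to 0.032 for Il13ra1. Among the values of named members under the other settings and the block, 189 kept their direction and their side of the threshold, 17 passed it, 13 lost it and 6 changed direction. Il23a, at 1 against 11 fragments, and members under 0.1 FPKM are limited by depth.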
